A study of Mus musculus with 4 samples.

Results

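S100 proteins are small calcium-binding proteins that bind and regulate other proteins, and annexins are calcium-dependent membrane-binding proteins that several S100 proteins hold as partners. The best known complex joins annexin A2 to S100A10, an S100 protein that does not itself respond to calcium, and S100A11 binds annexin A1 in a similar way. S100A6 has been reported to bind annexins A2 and A6, and S100A1 to bind annexin A6. In the brain, the related S100B is widely used as an astroglial marker.

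The 10 genes described here are 6 S100 genes (S100a1, S100a6, S100a10, S100a11, S100a13 and S100a16) and 4 annexin genes (Anxa1, Anxa2, Anxa5 and Anxa6), chosen by their gene name on the array out of 28632 names. They were covered by 12 of 41174 probes, and each had at least 1 probe among the 18024 genes that could be tested. The list was drawn up with the mutant-to-control ratios of this experiment known, in particular the lower S100a6 and S100a10, so the ratios below describe the members and are not independent evidence about them.

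RNA was taken from the cerebellum of mice at postnatal day 30. Mutants were mGfap-Cre; Dicer flox/flox and control littermates mGfap-Cre; Dicer +/flox, on a mixed strain background, so both groups carried Cre and at least 1 floxed allele. Dicer is the nuclease that cuts microRNAs from their precursors. Cre was driven by the mouse Gfap promoter, which is active mainly in astroglia, while the RNA came from the whole cerebellum. The Dicer1 probe gave a ratio of 0.04 ± 0.22 (n = 4), and whether it reads the deleted part of the transcript was not tested. Each of 4 two-colour arrays held 1 mutant and 1 control of a littermate pair, with the mutant labelled in Cy5 in pairs 1 and 3 and in Cy3 in pairs 2 and 4. In bulk tissue, fewer cells of a type and less RNA per cell cannot be told apart.

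Signal passed the scanner software's background limit for 26397 to 28907 probes in mutants and 26289 to 27717 in controls, and the number of arrays limits the precision. The 7 granule neuron and 7 Purkinje neuron markers listed were all above the limit and tested. All 12 probes of the members were well above background in both channels of all 4 arrays. Ratios are log2 of mutant over control, with the SD between the pairs (n = 4) after each mean, and an adjusted p comes from limma over all 18024 genes, with 0.05 as the threshold. A level is the normalised log2 intensity of 1 probe in 1 animal, and levels of different probes are not compared. Across all genes the median ratio was 0.00 and the median SD between pairs was 0.16.

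Some of the 60-base probes are shown, from both families, because each ratio below was read from such a stretch of a transcript. Both Anxa2 probes are given, since their values are set side by side. Those of S100a6, S100a13, Anxa1, Anxa2 and Anxa6 printed here have at least 1 reading frame with no stop codon across all 60 bases. They are in the array's own orientation, 5′ to 3′, with no base singled out in capitals.

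S100a6, probe A_51_P281089: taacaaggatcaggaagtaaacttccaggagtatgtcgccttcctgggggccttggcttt

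S100a13, probe A_51_P269852: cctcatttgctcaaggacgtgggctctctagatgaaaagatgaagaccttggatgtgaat

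Anxa1, probe A_51_P283590: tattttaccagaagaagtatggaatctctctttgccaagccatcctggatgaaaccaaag

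Anxa2, probe A_52_P62037: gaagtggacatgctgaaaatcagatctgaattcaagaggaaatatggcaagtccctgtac

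Anxa2, probe A_51_P165342: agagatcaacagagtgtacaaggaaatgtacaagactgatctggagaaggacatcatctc

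Anxa6, probe A_51_P231979: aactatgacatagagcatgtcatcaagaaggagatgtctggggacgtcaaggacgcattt

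In build mm9, as the array files give positions, the S100a6 probe lies at chr3:90418160-90418219 and the S100a13 probe spans chr3:90319950-90328319, a distance longer than the probe because it joins separate blocks of the genome. The Anxa1 probe spans chr19:20448248-20449761. The Anxa2 probes lie at chr9:69337510-69337569 and chr9:69330846-69331620, and the Anxa6 probe at chr11:54798588-54798647.

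In mutant cerebellum several S100 genes were lower, while no annexin passed the test. All 6 S100 genes had a mean ratio below 0, with a median of -0.63, and 5 of the 6 were lower in every pair, against 7.32% of all tested genes. S100a6, S100a10, S100a1 and S100a13 were called lower, 4 of 6, where 0.444% of all tested genes were called lower. None of the 4 annexins was called by limma, and none had an unadjusted p under 0.05, where 1.03% of all tested genes were called in either direction, 0.588% were called higher and 9.39% had an unadjusted p under 0.05. Their median ratio was 0.05, and none was lower or higher in all 4 pairs, while 7.75% of all tested genes were higher in all 4. Because the contrast itself guided the choice of genes, nothing further is read from these counts.

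**Figure D1:**
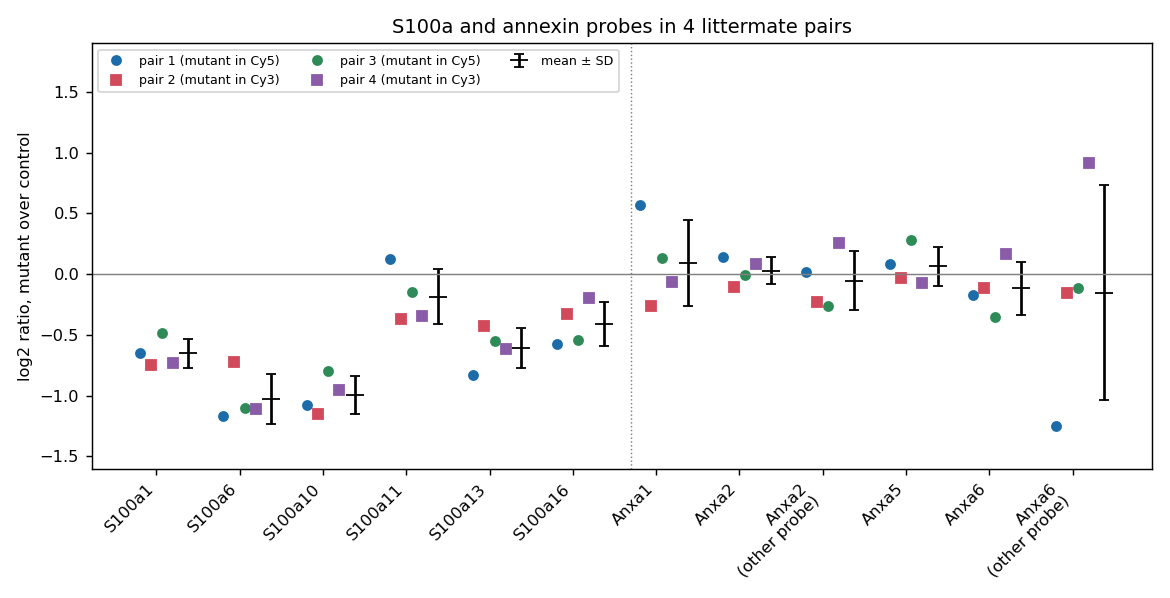
Log2 ratio of mutant over control (y axis) for every probe of the 10 genes (x axis), with a point per littermate pair (circles, mutant in Cy5; squares, mutant in Cy3) and the mean ± SD beside them. The S100a1, S100a6, S100a10, S100a13 and S100a16 points all lie below 0, while the annexin points lie on both sides of 0 and the second Anxa6 probe spreads from -1.25 to 0.91.

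S100a10 encodes the light chain of the complex with annexin A2 (probe A_51_P342871, chr3:93368437-93368496). Its level was 12.36, 12.36, 12.31 and 11.97 in the controls of pairs 1 to 4 and 11.29, 11.21, 11.52 and 11.01 in the mutants. Every mutant was below every control. The ratios of S100a10 were -1.07, -1.15, -0.79 and -0.96, a mean of -0.99 ± 0.15, which puts the mutant at 50.2% of control (95% interval of the fit, 43.9% to 57.4%, adjusted p = 0.0113).

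S100a6, also named calcyclin, fell by a similar amount. Its level was 12.31, 12.20, 12.08 and 11.82 in the controls and 11.14, 11.48, 10.98 and 10.71 in the mutants, again without overlap. Its ratios were -1.17, -0.72, -1.10 and -1.11, with pair 2 apart from the others, and the mean of S100a6 was -1.03 ± 0.21 (49.1% of control, 95% interval 42.5% to 56.8%, adjusted p = 0.0118).

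S100a1, which regulates calcium handling in heart muscle, had the smallest SD between pairs of the 6 S100 genes. Its levels lay between 11.49 and 11.58 in the controls and between 10.77 and 11.01 in the mutants (probe A_51_P172475, chr3:90315133-90315192). The ratios of S100a1 were -0.65, -0.75, -0.48 and -0.73, a mean of -0.65 ± 0.12 (63.6% of control, adjusted p = 0.0184). S100a13, which takes part in the release of the growth factor FGF1, stood at -0.83, -0.43, -0.55 and -0.62, a mean of -0.61 ± 0.17 (65.7% of control, adjusted p = 0.0380). Its levels, 11.72 to 12.01 in controls and 11.10 to 11.51 in mutants, did not overlap either. Non-overlapping levels with the mutant lower were thus found for 4 of the 10 genes, against 1.79% of all tested genes.

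The other S100 genes did not pass the threshold. S100a16, a widely expressed family member, was lower in all 4 pairs, at -0.57, -0.32, -0.55 and -0.19, with a mean of -0.41 ± 0.18 and an adjusted p of 0.0632 (probe A_51_P134533, chr3:90346048-90346299). Its levels in mutants (10.37 to 11.02) and controls (10.94 to 11.47) overlapped, although each mutant was below its own littermate. S100a11, the partner of annexin A1, had ratios of 0.12, -0.37, -0.14 and -0.34, a mean of -0.18 ± 0.23 (adjusted p = 0.506, 95% interval 78.0% to 99.5% of control, probe A_51_P155643, chr3:93330017-93330076). By dye, S100a11 averaged -0.01 with the mutant in Cy5 and -0.36 with it in Cy3. The interval of the fit leaves out this dye difference, while the SD holds it. In limma without a dye term the adjusted p of S100a11 was 0.754. The reference table lists a pseudogene named for S100a11, so its probe may read more than 1 locus.

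**Figure D2:**
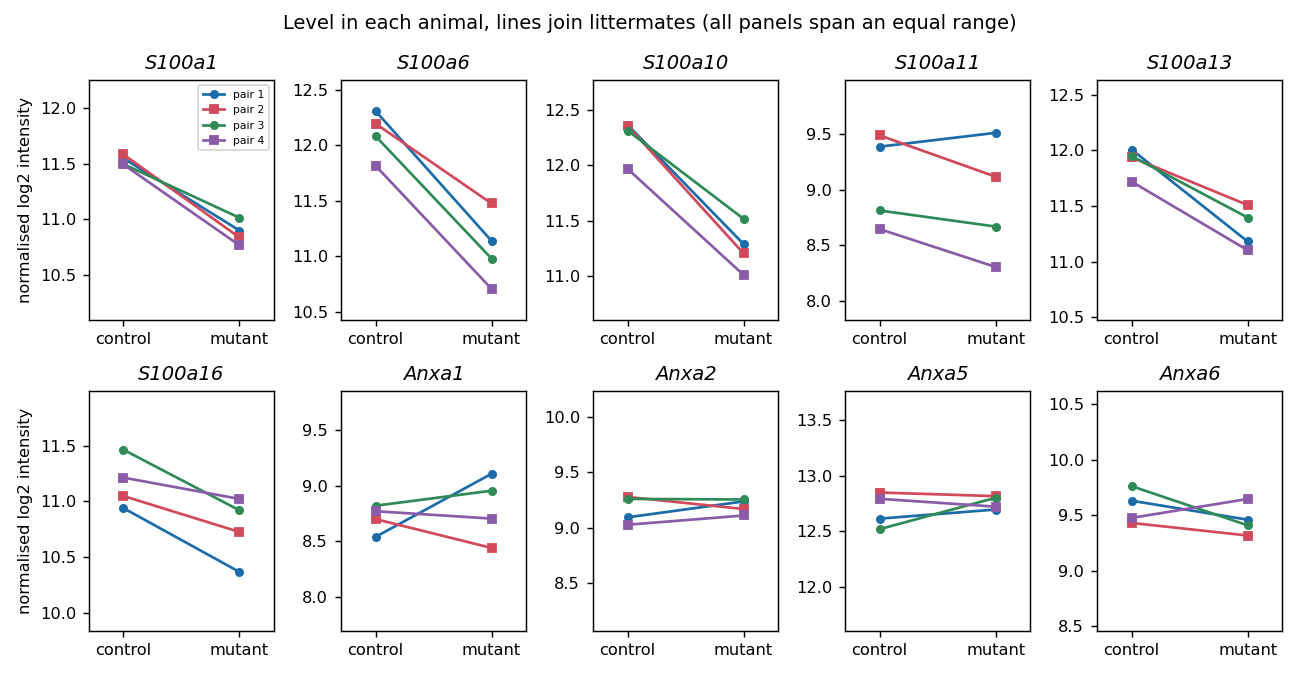
Normalised log2 intensity (y axis) of each animal for the probe that stood for each gene, with control on the left and mutant on the right and a line joining littermates. Every panel spans the same number of log2 units, and the lines fall in all pairs for S100a1, S100a6, S100a10, S100a13 and S100a16, while those of the 4 annexins run both ways.

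The count of called S100 genes changed when some of the pairs were left out. Without replicate 1 none of the 6 S100 genes was called by limma, although all 6 had an unadjusted p under 0.05, against 5.80% of all genes tested without that pair. S100a10 stood at -0.92 (adjusted p = 0.0524), S100a6 at -1.01 (adjusted p = 0.0585), S100a1 at -0.61 (adjusted p = 0.144) and S100a13 at -0.54 (adjusted p = 0.221). Without replicate 3, S100a6 and S100a10 were called and S100a1 (adjusted p = 0.0763) and S100a13 (adjusted p = 0.0939) were not. Leaving out replicate 2 gave 4 called S100 genes, and leaving out replicate 4 gave 5. Calls over all genes also changed, from 186 to 52 without replicate 1 and to 96 without replicate 3. They rose to 267 without replicate 2 and to 337 without replicate 4, of 18008 genes tested in each.

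Annexin A2, a membrane-binding protein of the cell cortex and endosomes, was not called while S100a10 was. Anxa2 had ratios of 0.14, -0.11, -0.01 and 0.08, a mean of 0.03 ± 0.11 (adjusted p = 0.949). The levels of Anxa2 were 9.09, 9.28, 9.26 and 9.03 in the controls and 9.24, 9.17, 9.25 and 9.11 in the mutants, so the groups overlapped fully. The 95% interval of the Anxa2 fit ran from 90.7% to 115% of control. The second Anxa2 probe gave 0.02, -0.23, -0.27 and 0.25, a mean of -0.06 ± 0.24, on either side of 0 like the first.

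Annexin A1, known for restraining inflammation, had the largest SD between pairs among the brightest probes of the 4 annexins. The ratios of Anxa1 were 0.57, -0.26, 0.14 and -0.07, a mean of 0.09 ± 0.35 (adjusted p = 0.861). Pair 1 was highest for Anxa1, as it was for S100a11, and without replicate 1 the mean of Anxa1 was -0.01. By dye, the mean of Anxa1 was 0.35 in the pairs with the mutant in Cy5 and -0.16 in those with it in Cy3, and the part of the dye in the spread was not tested. In pair 1 all 8 meningeal markers had a ratio above 0, from 0.05 to 2.06 with a median of 0.77, where the medians of the other pairs lay between 0.09 and 0.21. Of the 6 macrophage markers, 5 were above 0 in pair 1, with a range from -0.14 to 1.16 and a median of 0.15, the same median as in pair 3. The part of these markers in the Anxa1 value was not tested.

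Annexin A5, which binds phosphatidylserine exposed on cells, stood at 0.08, -0.03, 0.28 and -0.07, and the mean of Anxa5 was 0.07 ± 0.16 (adjusted p = 0.861, 95% interval 93.5% to 117% of control, probe A_51_P426754, chr3:36348065-36348124). Annexin A6, the largest annexin, gave -0.17, -0.11, -0.35 and 0.17, and the mean of Anxa6 was -0.12 ± 0.22 (adjusted p = 0.770, 95% interval 80.7% to 105.4% of control). Its other probe (A_52_P434670, chr11:54804707-54804766), assigned to a cDNA clone, disagreed between arrays. There the Anxa6 ratios were -1.25, -0.15, -0.12 and 0.91, a mean of -0.15 ± 0.88, on both sides of 0. The levels of all 4 annexins overlapped between the groups, where 3.98% of all tested genes had levels without overlap in either direction.

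Set against their partners pair by pair, the annexins had the higher ratio in every comparison. The ratio of Anxa2 exceeded that of S100a10 by 1.22, 1.04, 0.79 and 1.04 in pairs 1 to 4, a mean difference of 1.02 ± 0.18. It exceeded that of S100a6 by 1.31, 0.61, 1.097 and 1.19, a mean difference of 1.05 ± 0.31. The ratio of Anxa6 lay above that of S100a6 by 0.91 ± 0.30 and above that of S100a1 by 0.54 ± 0.32, where the single pairs ran from 0.13 to 0.90. Differences from S100a11 were smaller, at 0.28 ± 0.14 for Anxa1 (0.11 to 0.44) and 0.21 ± 0.17 for Anxa2 (0.02 to 0.42). These differences carry no test, since the S100 ratios were known when the pairs were chosen.

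**Figure D3:**
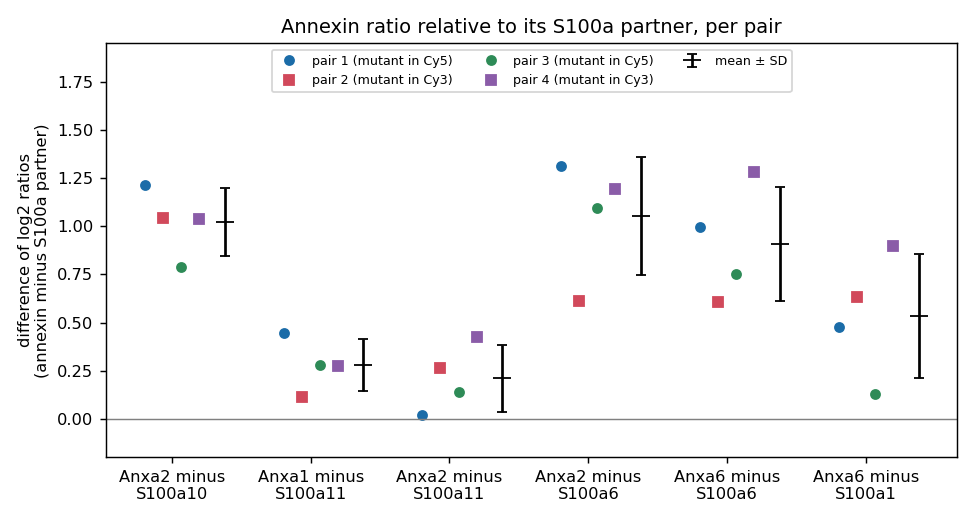
Difference of log2 ratios, annexin minus S100a partner (y axis), for 6 partner pairs (x axis), with a point per littermate pair and the mean ± SD beside them. All points lie above 0; those of Anxa2 minus S100a10 run from 0.79 to 1.22 and those of Anxa2 minus S100a11 from 0.02 to 0.42.

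Across all 10 genes, the highest S100 ratio and the lowest annexin ratio of a pair overlapped through S100a11 in pairs 1 and 3. In pairs 2 and 4 all 6 S100 genes lay below every annexin, and in pairs 1 and 3 this held for 5 of 6. Pairs 1 and 3 were those with the mutant in Cy5, and the part of the dye in this split was not tested. The S100 ratios were known when the genes were chosen, so this order carries no test.

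The tested S100a genes lie on chromosome 3 in separate groups, a position that the choice by name did not use. By probe start, S100a9 lies 78.4 kb from S100a6, while S100a11 and S100a10 lie 2912 and 2950 kb from it. Between the outermost S100a probes, chr3:90315133-93368496 in mm9, 25 genes were tested, of which 10 were S100a genes. The 15 genes not named S100a include epidermal small proline-rich and late cornified envelope genes. They had a median ratio of -0.02 and means from -0.27 to 0.07, and none was called by limma. Their expression level in cerebellum was not examined, so ratios near 0 are not read as a contrast to the S100a genes. The tested genes next in order to S100a6 were S100a4 (-0.08 ± 0.23) on 1 side and S100a8 (0.40 ± 1.55) on the other. The S100a8 probe started 55.6 kb from that of S100a6, farther than the probe of S100a3. S100a5 and S100a7a were on the array but not tested. S100a10 had as its nearest tested gene in this span a transcript listed as NAP103812-1 (-0.27 ± 0.33, adjusted p = 0.181), the lowest mean of those 15. Its probe is adjacent to that of S100a11 on the same strand, and whether it reads the S100a11 transcript was not tested. Each group therefore held called S100a genes and genes of the same family that did not pass.

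**Figure D4:**
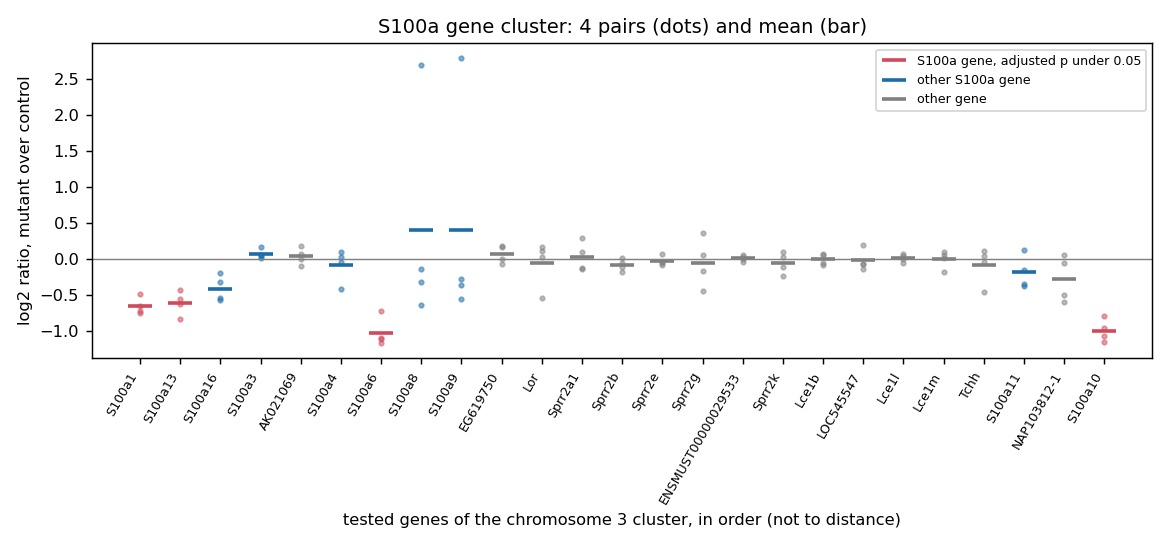
Log2 ratio of mutant over control (y axis) of the 25 tested genes between the outermost S100a probes of chromosome 3, in their order along the chromosome (x axis), with 4 pairs as dots and the mean as a bar. Spacing does not show distance. S100a1, S100a13, S100a6 and S100a10 lie lowest, and pair 1 stands far above the other pairs for S100a8 and S100a9.

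S100a1 and S100a13 are direct neighbours transcribed in opposite directions. In the RefSeq promoter table (build GRCm38.p6), which held 8 of the 10 genes and not S100a10 or Anxa6, their start sites face away from each other across 104 bases. That stretch, picked after the ratios were known, is shown because both genes, with similar ratios of -0.65 and -0.61, begin at its ends (chr3:90514331-90514434, plus strand). Capitals mark its 3 CG dinucleotides. RefSeq also holds an S100a13 gene model that begins further upstream and overlaps S100a1.

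Between S100a1 and S100a13: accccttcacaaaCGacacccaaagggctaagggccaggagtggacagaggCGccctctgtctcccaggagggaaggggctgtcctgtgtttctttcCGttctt

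The letters TATAAA, searched on both strands like the other short motifs here, were not found in that stretch. In the 250 bases before a start, TATAAA was present for Anxa1 and Anxa2 and for none of the 5 S100a genes in the table, and 12.4% of 32851 windows of that length held it. GGGCGG was in the windows of S100a11 and Anxa2, and in 32.7% of all windows. S100a16, the only gene here with 2 windows, held it in the second and not in the first. S100a11 and Anxa2 also held TGACTCA, found in 4.46% of all windows. These matches describe the letters only.

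Other members of both families were measured beside them. Of 10 further S100 genes, 5 could be tested and 1 was called lower, where 0.444% of all tested genes were called lower. S100b, the astroglial marker, was lower in all 4 pairs, at -0.54, -0.67, -0.46 and -0.59, a mean of -0.56 ± 0.09 (adjusted p = 0.0231). S100a3 stood at 0.07 ± 0.07. S100a8 and S100a9, which are abundant in neutrophils, were set apart by pair 1: S100a8 was at 2.70 there and between -0.64 and -0.14 in the other pairs, and S100a9 at 2.80 against -0.55 to -0.27. Of 8 further annexins, 6 could be tested and none was called by limma, where 1.03% of all tested genes were called. With 6 genes at that share, the absence of a call is not read as a result. In limma 2 of the 6 had an unadjusted p under 0.05, against 9.39% of all tested genes. The median of the 6 was -0.07, and the lowest mean was -0.35 ± 0.15 for Anxa8 (adjusted p = 0.0825). Anxa4 stood at -0.18 ± 0.10 and Anxa3 at -0.09 ± 0.12.

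Genes whose proteins bind or depend on S100 proteins or annexins gave counts near the shares of all tested genes. These counts are therefore not read as a result about them. Of 27 such genes, 18 could be tested, with a median of 0.00. None was called, against 1.03% of all tested genes, and 1 had an unadjusted p under 0.05 in limma, against 9.39%. That 1 was Plat, the tissue plasminogen activator that binds the annexin A2 complex, at 0.38, 0.40, 0.40 and -0.04, a mean of 0.28 ± 0.22 (adjusted p = 0.375). Sugt1, a chaperone adaptor bound by S100A6, was at 0.08 ± 0.10. Ahnak, a large scaffold held by the annexin A2 and S100A10 complex, was at -0.10 ± 0.18.

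**Figure D5:**
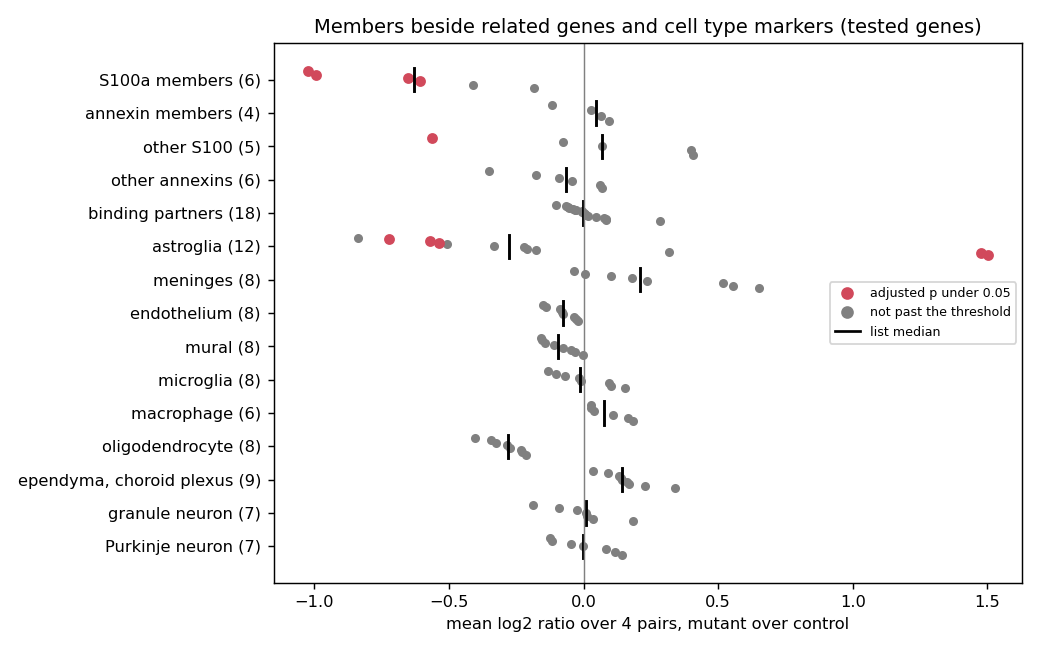
Mean log2 ratio over 4 pairs (x axis) of each tested gene in the S100a and annexin members, the further family genes, their binding partners and cell type marker lists (y axis, number of tested genes in brackets), with called genes in red and the list median as a bar. The S100a members have a median of -0.63 and the annexin members one of 0.05, and the astroglial list has called genes on both sides of 0.

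Some markers of astroglia changed as well, in both directions. Of 12 tested astroglial markers, 3 were called lower (Ndrg2 at -0.72 ± 0.26, Slc1a2 at -0.57 ± 0.11 and Aqp4 at -0.54 ± 0.26) and 2 higher (Aldh1l1 at 1.50 ± 0.23 and Gfap at 1.47 ± 0.35). These 5 of 12 stand against 1.03% of all tested genes called. In limma 10 of the 12 had an unadjusted p under 0.05, against 9.39% of all tested genes. Of the 12, 9 had a mean ratio below 0. In all 4 pairs 6 were lower and 3 higher, against 7.32% and 7.75% of all tested genes. The median of the list was -0.28. Its summed linear level, which the brightest probes dominate, was 280713 to 320931 intensity units in controls and 209880 to 267201 in mutants. The part of this shift in the lower S100 levels was not tested. Ratios of the 9 tested ependymal and choroid plexus markers had a median of 0.14 and those of 8 meningeal markers one of 0.21, and neither list held a called gene by limma, with 1 and 3 at an unadjusted p under 0.05. The summed level of the meningeal list was 79485 to 102412 in controls and 81522 to 99554 in mutants. Endothelial (-0.08), mural (-0.09), microglial (-0.01), macrophage (0.07), granule neuron (0.01) and Purkinje neuron (0.00) medians were near 0, and none of their 8, 8, 8, 6, 7 and 7 tested genes was called or had an unadjusted p under 0.05 in limma. The 8 oligodendrocyte markers had a median of -0.28 with none called and 3 at an unadjusted p under 0.05. All tested endothelial, mural and oligodendrocyte markers had a mean ratio below 0. All tested macrophage, ependymal and choroid plexus markers had one above 0, as did 7 of 8 meningeal markers. Of those 8, 4 were higher in all 4 pairs, against 7.75% of all tested genes. The microglial and neuron lists held both directions. The cause of these directions was not tested.

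The genes with the pair values nearest to those of S100a6 were Eva1a (-1.02), Cxcl14 (-1.01) and Rlbp1 (-1.10), at a root mean square difference over 4 pairs of 0.08, 0.17 and 0.21 log2 units. For S100a10 they were Adcy2 (-0.96), Cxcl14 and P2ry1 (-0.91), at 0.08, 0.12 and 0.15.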

How the data were processed

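Linear spot and background intensities of both dyes were deposited by the authors as Agilent Feature Extraction 10.5.1.1 files, per the file headers. Each channel began with 500 ng of total RNA, per the labels' protocols. The deposited log10 ratios of Cy5 over Cy3 in the array files, and the series value table with the sign turned to mutant over control in pairs 2 and 4, were used as alternatives. They agreed to within 4.84e-06. Background was corrected with normexp (offset 50), leaving spots with an outlier flag (non-uniform spot or background, or population outlier) out of its fit, and ratios were normalised by loess within each array with limma 3.58.1 in R 4.3.3. Flagged spots were set missing. Tested probes passed the background limit in every mutant or in every control, with a value on at least 3 arrays, and the brightest probe stood for a gene. Symbols came from accessions for 24844 probes (reference table) and from the deposited file for the other 16330, and members were matched by the file's gene name. limma fitted a genotype and a dye term, with Benjamini-Hochberg adjustment over 18024 genes, 2 residual and 3.37 prior degrees of freedom. Levels are channel intensities after Aquantile scaling. The fit was tested on simulated data.

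The members, lists and partner pairs were chosen with earlier results of these data known. A first run left out only spots flagged as non-uniform or as population outliers and called 187 genes. The flags for a non-uniform local background were added after that count had been seen, which gave 186, and the first set is kept as an alternative chosen after seeing the data. The motifs and the stretch between S100a1 and S100a13 were also picked after seeing the data. Named genes were all members, the called genes and the 3 with the smallest p of each family or partner list, and called markers. Also named were the tested cluster genes next in order to called S100a genes, and the 3 nearest genes of S100a6 and S100a10 by pair values. S100a9 was named after its values were seen. Pairing is given by the labels, which put littermates on 1 array.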

Additional observations from a re-analysis of the deposited data

Results flagged for a closer look

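The pair values of every member probe, partner difference and gene named with a ratio were checked, 41 in all. In 6 of these 41, 1 pair lay farther from the others than the 95% critical value of Dixon's gap ratio, a result that chance gives in about 1 of 20 groups. For S100a6 the gap ratio was 0.852, with pair 2 at -0.72 and the others from -1.17 to -1.10. For S100a8 it was 0.849, with pair 1 at 2.70. For S100a9 it was 0.918, with pair 1 at 2.80. For Plat it was 0.962, with pair 4 at -0.04 and the others from 0.38 to 0.40. For Slc1a2 it was 0.879, with pair 4 at -0.41 and the others from -0.64 to -0.61. For Cxcl14 it was 0.854, with pair 1 at -1.07 and the highest of the others at -0.98.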

How the results depend on the processing

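Across 17 alternatives no annexin was called by limma in any, and none had an unadjusted p under 0.05. Of these, the narrower outlier flags were added after seeing the data (187 genes and the same number of members called). All 6 partner differences kept their sign and stayed within 1 SD of the value given (Anxa2 minus S100a10 from 0.91 to 1.13). The settings for dim probes, single probes, dye term, variances and pairing leave these differences unchanged by design, so they do not test them. The processed signals and the value table hold almost the same ratios and are not independent of each other. The ratios of the 6 S100 genes stayed below 0. The count of called S100 genes ran from 0 to 5 over the settings that leave out a pair (0 without replicate 1, 2 without replicate 3), and from 3 to 5 in the others. S100a13 missed the threshold when flags were applied only after a background fit on all spots (adjusted p = 0.0509), with the processed signals (adjusted p = 0.0889), the value table (adjusted p = 0.0889) or no replicate block, where littermates were unpaired (adjusted p = 0.0513). S100a16 passed when dim probes were kept (adjusted p = 0.0461) and without replicate 4 (adjusted p = 0.0475). Near 0, Anxa1 turned to 0.00 (-0.0011) under that late flagging and -0.01 (-0.014) without replicate 1. Anxa2 turned to -0.01 (-0.014) with the mean over probes, -0.01 (-0.0091) without replicate 1 and -0.02 (-0.020) without replicate 4. Leaving out 1 replicate, Anxa1 ran from -0.01 to 0.20 and Anxa2 from -0.020 to 0.076. Over all genes 186 were called, 82 under late flagging, and 52 to 337 without 1 replicate. The cause of these changes was not tested. All member probes were above background on every array.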
